A study of Mus musculus with 32 samples.

Results

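The keratin genes Krt5, Krt14, Krt15, Krt17, Krt6a, Krt16, Krt13 and Krt4 of basal and stratified epithelia were followed across all groups of a mouse array series. They were chosen by name, and all 8 were present among the 21237 probe sets measured, each of which stands for 1 Ensembl mouse gene. Their identifiers are, for the basal keratins, ENSMUSG00000061527_at (Krt5), ENSMUSG00000045545_at (Krt14) and ENSMUSG00000054146_at (Krt15), and for the inducible ones ENSMUSG00000035557_at (Krt17), ENSMUSG00000058354_at (Krt6a) and ENSMUSG00000053797_at (Krt16). Krt13 is ENSMUSG00000044041_at and Krt4 is ENSMUSG00000059668_at. The RNA came from normal urothelium, the epithelium lining the bladder, taken from 9 mice, and from BC57, a cultured mouse bladder cancer line. The tissue of every mouse, and the BC57 cell pellet, was split into a fresh frozen (FF) part and a part that went through 24 h of formalin and into a paraffin block (FFPE). For each cell type, FF RNA was amplified with GeneChip WT Plus at 100 ng (n = 2 arrays) and with GeneChip WT Pico at 2 ng and 0.5 ng (n = 3 each). FFPE RNA was amplified with SensationPlus at 50 ng (n = 2) and with GeneChip WT Pico at 2 ng and 0.5 ng (n = 3 each). This made 32 arrays in 12 groups, and the series takes FF RNA at 100 ng as its reference. No genotype, strain, sex or age of the mice and no drug treatment is given in the sources used here, BC57 is a single line, and it is not stated if tissue from different mice was combined. The design text counts the arrays of a group as repeats of 1 sample, so all errors below measure the spread between arrays and not between animals or cultures.

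Keratins are the intermediate filament proteins of epithelial cells. A filament needs a type I keratin (here Krt13, Krt14, Krt15, Krt16 and Krt17) paired with a type II keratin (here Krt4, Krt5 and Krt6a). Krt5 with Krt14 or Krt15 marks the basal layer of stratified epithelia, and in mouse bladder Krt5 marks basal cells, of which a subset carries Krt14. Krt6a, Krt16 and Krt17 are induced in skin by wounding and hyperproliferation, and Krt4 with Krt13 forms the pair of the upper layers of moist stratified epithelia such as the oesophagus. Krt5, Krt14 and Krt6 are also used as markers of the basal and squamous-like class of human bladder cancer.

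Values are log2 expression as deposited, so a difference of 1 is a fold of 2. A change was called at a limma adjusted p under 0.05 and a log2 change of at least 1 in either direction, with p-values adjusted over all 21237 probe sets. Levels of different keratins cannot be set against each other on this scale. Probe sequences were not used here, so signal shared between close relatives, such as Krt6a and its neighbouring paralogs or Krt14, Krt16 and Krt17, cannot be told apart.

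In the reference, Krt5, Krt15 and Krt4 were higher in urothelium, and Krt14, Krt6a, Krt17 and Krt16 were higher in BC57. Of the 8 keratins, 7 were called, 4 higher and 3 lower in BC57, and Krt13 was not. Among all probe sets 15.4% were called, 8.06% higher and 7.36% lower in BC57. The median change of the 8 keratins was 0.79, against 0.07 over all probe sets, but with members on both sides of 0 it describes none of them. In these bulk samples, fewer cells of a type and less RNA per cell cannot be told apart. Since the sources used here name no other probe set, markers of urothelium, muscle, stroma or leukocytes were not analysed here and their part in these differences was not tested.

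The basal keratins were divided between the cell types. Krt5, the basal type II keratin, read 12.26 and 12.22 on the urothelium arrays and 7.95 and 7.78 on the BC57 arrays at FF 100 ng. The change was -4.37 ± 0.08 (SE, n = 2 each, limma adjusted p = 3.71e-07), a 20.7-fold lower value in BC57. Urothelium arrays held Krt5 at a mean percentile of 99.9 of all probe sets, and BC57 arrays still held it at 88.0, so Krt5 was lower but not among the dim probe sets of BC57. Krt15, a type I keratin that can pair with Krt5, read 11.33 and 11.18 in urothelium and 6.22 on both BC57 arrays. Its change of -5.04 ± 0.07 (limma adjusted p = 2.18e-07) was a fold of 32.8. Krt14, the usual type I partner of Krt5, went the other way. It read 5.57 and 5.44 in urothelium, near the middle of all probe sets, and 9.41 and 9.19 in BC57, a change of 3.79 ± 0.09 (limma adjusted p = 8.15e-07) or 13.8-fold. How far the urothelium values of Krt14 lie above background is not known, and the fold depends on it. The cell types did not overlap for Krt5, Krt15 or Krt14, but neither did they for Krt13, which was not called. The share of all probe sets without overlap was not computed.

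The inducible keratins were all higher in BC57. Krt6a, the inducible type II keratin, read 4.16 and 4.17 in urothelium and 9.10 and 9.25 in BC57, with a change of 5.01 ± 0.07 (limma adjusted p = 2.18e-07), a fold of 32.3. Krt17, an inducible type I keratin, read 4.75 and 4.64 in urothelium and 6.65 and 6.54 in BC57, and changed by 1.90 ± 0.08 (limma adjusted p = 4.93e-06). Krt16, the type I keratin usually paired with Krt6, read 4.08 and 3.93 in urothelium and 5.41 and 5.46 in BC57, and changed by 1.43 ± 0.08 (limma adjusted p = 2.01e-05). In urothelium all 3 lay in the lower part of the array, at mean percentiles of 29.4, 37.5 and 27.0. In BC57 they stood at 96.7, 70.2 and 51.1, so Krt16 was higher than in urothelium but only at the middle of all probe sets. With no detection calls at hand, these urothelium values cannot be told from background, and the folds depend on it.

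The pair of the upper layers was split. Krt4, the type II member, read 9.48 and 9.60 in urothelium and 6.90 and 6.81 in BC57, a change of -2.69 ± 0.07 (limma adjusted p = 1.08e-06) or 6.44-fold. Krt13, its type I partner, read 5.34 and 5.30 in urothelium and 5.41 and 5.54 in BC57. The difference of 0.15 had a 95% interval of -0.03 to 0.34 (limma adjusted p = 0.141) and was not called. Both cell types held Krt13 near the middle of all probe sets, at mean percentiles of 48.1 and 51.8. How far these Krt13 values lie above background is not known.

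**Figure D1:**
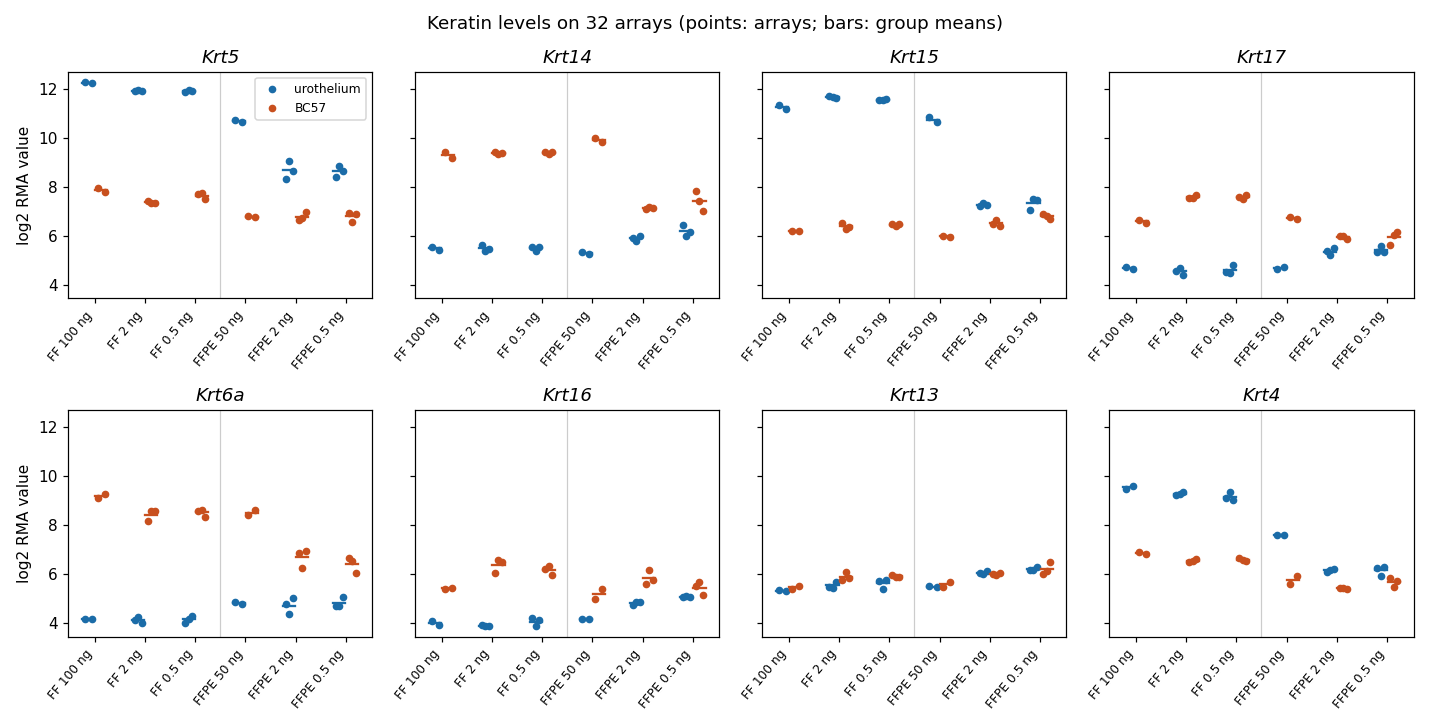
Log2 RMA value (y axis) of the 8 keratins on 32 arrays, by condition (x axis), with urothelium in blue and BC57 in orange; points are arrays and bars are group means. Krt5, Krt15 and Krt4 lie higher in urothelium, Krt14, Krt17, Krt6a and Krt16 higher in BC57, and the groups draw together at FFPE 2 ng and FFPE 0.5 ng.

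The promoter table at hand, RefSeq on build GRCm38.p6, held 3 of the 8 keratins. The windows of Krt5, which differed between the cell types, and Krt13, which was not called, are shown to set a changed and an uncalled keratin side by side. Krt5 is at chr15:101712856-101713155 and Krt13 at chr11:100121517-100121816, both on the minus strand and written 5′ to 3′ from 250 bases before to 50 bases after the start. Capitals mark the motif ATAAAAGG, a form of the TATA box.
Krt5: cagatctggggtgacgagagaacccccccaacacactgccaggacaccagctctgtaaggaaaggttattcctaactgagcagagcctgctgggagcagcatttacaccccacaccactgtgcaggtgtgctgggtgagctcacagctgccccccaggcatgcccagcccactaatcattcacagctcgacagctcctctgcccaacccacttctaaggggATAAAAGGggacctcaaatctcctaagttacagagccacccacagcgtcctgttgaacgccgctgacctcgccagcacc
Krt13: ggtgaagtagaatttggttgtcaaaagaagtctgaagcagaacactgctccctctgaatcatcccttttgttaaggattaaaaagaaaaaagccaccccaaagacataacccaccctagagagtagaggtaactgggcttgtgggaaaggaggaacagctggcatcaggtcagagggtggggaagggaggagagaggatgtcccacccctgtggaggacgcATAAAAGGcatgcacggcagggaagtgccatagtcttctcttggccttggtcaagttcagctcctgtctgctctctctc
The motif, chosen after these sequences were seen and searched on both strands, begins 29 bases before the start in both windows and occurs in 1.76% of the 32851 promoter windows of this length. TGANTCA, a loose form of the AP-1 motif that allows any middle base, occurs in 7.81% of the windows. It has 1 match in the Krt13 window, TGAATCA, 196 bases before the start, and no match in the Krt5 window. GCCNNNGGC, the AP-2 motif, which 16.6% hold, has no match in either. The table has 1 window for Krt14, at a start 1480 bases inside the gene, and a further one for Krt13, 989 bases inside; neither is shown.

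In FF RNA at low input Krt5, Krt15 and Krt4 were again called lower and Krt14, Krt17, Krt6a and Krt16 higher in BC57. At FF 2 ng 7 of 8 were called, against 15% of all probe sets, and at FF 0.5 ng 7 of 8, against 15%. Krt5 read 11.91, 11.93 and 11.89 in urothelium and 7.44, 7.33 and 7.35 in BC57 at 2 ng. At 0.5 ng it read 11.87, 11.96 and 11.92 in urothelium and 7.69, 7.74 and 7.50 in BC57. Its BC57 minus urothelium change was -4.54 ± 0.05 at 2 ng and -4.27 ± 0.08 at 0.5 ng, close to the -4.37 of the reference. Krt15 read 11.69, 11.67 and 11.63 in urothelium and 6.53, 6.30 and 6.36 in BC57 at 2 ng. At 0.5 ng it read 11.55, 11.55 and 11.56 in urothelium and 6.47, 6.40 and 6.47 in BC57. The cell types lay far apart at both inputs, with changes of -5.26 ± 0.07 and -5.11 ± 0.07. Krt14 read 5.63, 5.38 and 5.49 in urothelium and 9.43, 9.34 and 9.39 in BC57 at 2 ng. At 0.5 ng Krt14 read 5.56, 5.37 and 5.55 in urothelium and 9.42, 9.33 and 9.42 in BC57. The sign was again opposite to that of Krt5 and Krt15, with changes of 3.89 ± 0.07 and 3.90 ± 0.09. Krt4 read 9.23, 9.25 and 9.36 in urothelium and 6.49, 6.53 and 6.62 in BC57 at 2 ng. At 0.5 ng Krt4 read 9.09, 9.33 and 9.03 in urothelium and 6.65, 6.56 and 6.53 in BC57. It was lower in BC57, by changes of -2.73 ± 0.06 and -2.57 ± 0.10. The ratio of the low-input change to the reference change was between 0.955 and 1.04 for these 4 keratins at both inputs. Krt13 stood 0.35 ± 0.10 (limma adjusted p = 0.0131) and 0.28 ± 0.12 (limma adjusted p = 0.0987) higher in BC57, both under the 2-fold threshold.

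In FF RNA at low input the BC57 minus urothelium change differed from the reference by a called amount for Krt17 at both inputs and for Krt16 at 2 ng, and for Krt6a at neither. None of these calls held after quantile normalization. Krt17 in BC57 read 7.56, 7.56 and 7.65 at 2 ng and 7.59, 7.50 and 7.65 at 0.5 ng, all above the 6.65 and 6.54 of the reference arrays. In urothelium it read 4.58, 4.71 and 4.42 at 2 ng and 4.55, 4.49 and 4.83 at 0.5 ng, around the 4.75 and 4.64 of the reference. The BC57 minus urothelium change of Krt17 was therefore 3.02 ± 0.08 and 2.96 ± 0.12, and the difference from the reference, tested as an interaction, was 1.12 ± 0.12 at 2 ng (limma adjusted p = 0.000467) and 1.06 ± 0.16 at 0.5 ng (limma adjusted p = 0.00695). Krt16 in BC57 read 6.07, 6.59 and 6.51 at 2 ng against 5.41 and 5.46 in the reference, and its change differed by 1.04 ± 0.18 (limma adjusted p = 0.00719). At 0.5 ng Krt16 in BC57 read 6.20, 6.34 and 5.95, and the difference of 0.65 ± 0.19 was not called (limma adjusted p = 0.13). In urothelium Krt16 read 3.95, 3.88 and 3.90 at 2 ng and 4.21, 3.90 and 4.12 at 0.5 ng, overlapping the reference arrays. Of the 8 keratins, 2 were called for this difference at 2 ng, against 0.758% of all probe sets, and 1 at 0.5 ng, against 0.65%. These calls lie close to the 2-fold threshold. The Krt17 difference at 0.5 ng was not called without BC57 reference replicate 2 (1.01, limma adjusted p = 0.0554), without urothelium reference replicate 1 (1.0, limma adjusted p = 0.0568) or without urothelium 0.5 ng replicate 2 (0.99). The Krt16 difference at 2 ng was 0.97 without urothelium reference replicate 1, 0.94 without BC57 2 ng replicate 2 and 0.98 without BC57 2 ng replicate 3. After quantile normalization Krt17 stood at 0.90 and 0.88 and Krt16 at 0.84, and after centring on array medians Krt16 stood at 0.99, none of them called. Krt6a in BC57 read 8.16, 8.56 and 8.57 at 2 ng and 8.57, 8.63 and 8.34 at 0.5 ng, all below the 9.10 and 9.25 of the reference. In urothelium it read 4.12, 4.26 and 4.0 at 2 ng and 4.01, 4.18 and 4.32 at 0.5 ng. Its differences of -0.71 ± 0.17 (limma adjusted p = 0.0335) and -0.67 ± 0.17 (limma adjusted p = 0.0766) were not called.

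Set within each cell type, WT Pico on FF RNA gave no called keratin against WT Plus, by limma in either cell type at either input. The share of all probe sets called was 4.03% and 3.86% in urothelium at 2 ng and 0.5 ng, and 3.67% and 3.64% in BC57. Of the 8 keratins, 4 in urothelium and 6 in BC57 had an unadjusted p under 0.05 at each input, and the changes ran from -0.75 to 0.99. The share of all probe sets at this looser level was not computed, so these counts cannot be set against the shares above. In BC57 Krt17 stood 0.99 ± 0.08 higher at 2 ng (limma adjusted p = 1.71e-05) and 0.98 ± 0.10 at 0.5 ng, just under the 2-fold threshold. It passed that threshold after arrays were centred on their medians (1.0 and 1.01), without BC57 reference replicate 1 (1.04 at both inputs), without BC57 2 ng replicate 1 or 2 (1.01 each), and without BC57 0.5 ng replicate 2 (1.02). Krt16 stood 0.95 ± 0.14 and 0.73 ± 0.13 higher, and reached 1.11 without BC57 2 ng replicate 1. Kit and input differ together here, so their parts cannot be told apart.

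FFPE RNA at 50 ng with SensationPlus gave calls for the same 7 keratins, all but Krt13, against 15.7% of all probe sets. Krt5 read 10.72 and 10.65 in urothelium and 6.82 and 6.76 in BC57, a change of -3.89 ± 0.09 (limma adjusted p = 4.37e-06). Krt15 read 10.84 and 10.63 in urothelium and 6.02 and 5.96 in BC57, a change of -4.74 ± 0.11. Krt14 read 5.33 and 5.28 in urothelium and 9.98 and 9.83 in BC57, a change of 4.60 ± 0.09. The basal keratins thus still differed by folds of 14.9, 26.8 and 24.2 in fixed RNA under this kit. Krt6a read 4.89 and 4.77 in urothelium and 8.41 and 8.60 in BC57, a change of 3.67 ± 0.10. Krt17 read 4.67 and 4.74 in urothelium and 6.79 and 6.70 in BC57, a change of 2.04 ± 0.09. Krt4 read 7.59 and 7.61 in urothelium and 5.61 and 5.92 in BC57, a change of -1.84 ± 0.12. Krt16 was the weakest of the calls, with 4.18 and 4.17 in urothelium, 4.99 and 5.40 in BC57, and a change of 1.02 ± 0.15 (limma adjusted p = 0.00241) that was 0.81 and not called without BC57 replicate 2. Krt13 overlapped between the cell types, at 5.51 and 5.48 against 5.50 and 5.68. Against the reference, the change itself differed by a called amount for 1 of the 8 keratins, Krt6a, with 1.53% of all probe sets called. That difference was -1.34 ± 0.13 (limma adjusted p = 0.00178) and -0.80, not called, after quantile normalization, where Krt14 (0.80 ± 0.14 as deposited) was called with 1.03. The same difference for Krt4 was 0.85 ± 0.15, not called, and 1.01 and called without BC57 FFPE 50 ng replicate 1.

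With WT Pico on small amounts of FFPE RNA, the 7 keratins kept the sign of their change with a smaller size. The ratio to the reference change was 0.706 for Krt16 at 2 ng and between 0.107 and 0.430 for the others and for Krt16 at 0.5 ng. At FFPE 2 ng 4 of 8 keratins were called, Krt14, Krt6a and Krt16 higher and Krt5 lower in BC57, against 7.36% of all probe sets. At FFPE 0.5 ng 3 were called, Krt14, Krt6a and Krt5, against 4.5%. At FFPE 2 ng, Krt5 read 8.30, 9.04 and 8.66 in urothelium and 6.64, 6.72 and 6.99 in BC57. At FFPE 0.5 ng it read 8.39, 8.84 and 8.65 in urothelium and 6.94, 6.58 and 6.88 in BC57. Its change was -1.88 ± 0.18 (limma adjusted p = 0.000112) and -1.83 ± 0.15 (limma adjusted p = 0.000485), a fold of 3.69 at 2 ng where the reference gave 20.7.

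Krt15 lost more of its contrast than Krt5. It read 7.22, 7.35 and 7.27 in urothelium and 6.48, 6.65 and 6.42 in BC57 at FFPE 2 ng, and 7.06, 7.49 and 7.46 against 6.90, 6.80 and 6.70 at FFPE 0.5 ng. The cell types did not overlap, as for every keratin but Krt13, and the share of all probe sets without overlap was not computed. The change of -0.76 ± 0.09 (limma adjusted p = 0.00042) at 2 ng and -0.54 ± 0.14 (limma adjusted p = 0.0411) at 0.5 ng was under the 2-fold threshold. After quantile normalization the 2 ng change was -1.21 and called. Relative to the reference change, 0.151 of the log2 difference was left at 2 ng and 0.107 at 0.5 ng for Krt15, against 0.430 and 0.419 for Krt5. Over all probe sets called in the reference the median ratio was 0.479 and 0.373, and over the 7 called keratins it was 0.322 and 0.263; these ratios were not tested against each other.

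Among the keratins higher in BC57, Krt14 read 5.93, 5.80 and 6.0 in urothelium and 7.08, 7.20 and 7.12 in BC57 at FFPE 2 ng. At FFPE 0.5 ng it read 6.43, 5.99 and 6.18 in urothelium and 7.82, 7.43 and 7.03 in BC57. The change was 1.22 ± 0.09 and 1.23 ± 0.21, both called. Krt6a read 4.78, 4.38 and 5.02 in urothelium and 6.88, 6.25 and 6.96 in BC57 at 2 ng, and 4.70, 4.72 and 5.09 against 6.67, 6.53 and 6.06 at 0.5 ng. With changes of 1.97 ± 0.22 and 1.58 ± 0.18, it kept the groups well apart. Krt17 read 5.38, 5.21 and 5.51 in urothelium and 6.02, 6.02 and 5.89 in BC57 at 2 ng, and 5.35, 5.61 and 5.36 against 5.62, 6.03 and 6.18 at 0.5 ng. Its 0.61 ± 0.10 (limma adjusted p = 0.00226) and 0.50 ± 0.16 (limma adjusted p = 0.0755) were under the 2-fold threshold and not called. Krt16 read 4.74, 4.89 and 4.89 in urothelium and 5.61, 6.18 and 5.75 in BC57 at 2 ng, and 5.08, 5.13 and 5.07 against 5.52, 5.68 and 5.17 at 0.5 ng. It was called at 2 ng (1.01 ± 0.15, limma adjusted p = 0.00102), a call lost without urothelium replicate 1 (0.96) or BC57 replicate 2 (0.84), and not called at 0.5 ng (0.36 ± 0.14, limma adjusted p = 0.122).

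Neither Krt4 nor Krt13 was called there, but Krt4 stayed lower in BC57. Krt4 read 6.08, 6.17 and 6.21 in urothelium and 5.43, 5.43 and 5.41 in BC57 at FFPE 2 ng, and 6.24, 5.93 and 6.29 against 5.86, 5.47 and 5.71 at FFPE 0.5 ng. Its changes of -0.73 ± 0.08 (limma adjusted p = 0.000285) and -0.47 ± 0.14 (limma adjusted p = 0.0669) were under the 2-fold threshold. Krt13 differed by -0.05 (95% interval -0.25 to 0.15) at 2 ng and by 0.01 (-0.32 to 0.34) at 0.5 ng, and these intervals lie within the 2-fold threshold. Its 6 FFPE WT Pico arrays of each cell type lay between 5.97 and 6.50.

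**Figure D2:**
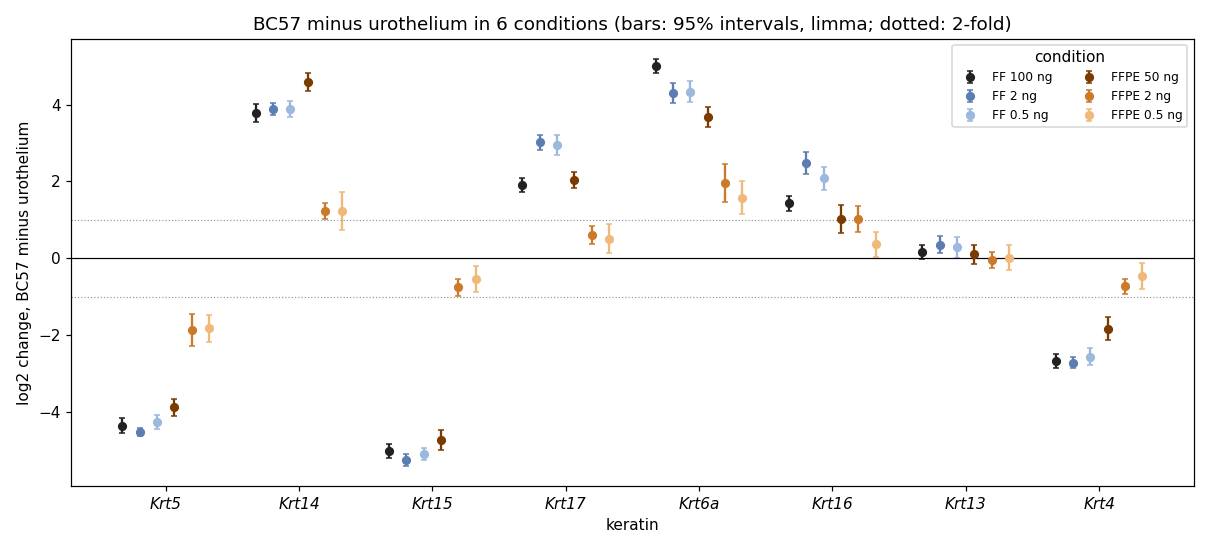
Log2 change of BC57 minus urothelium (y axis) for each keratin (x axis) in 6 conditions (colours); bars are 95% intervals from limma and dotted lines mark a fold of 2. The changes at FFPE 2 ng and FFPE 0.5 ng lie nearer 0 than those of the other conditions for Krt5, Krt14, Krt15, Krt17, Krt6a and Krt4, and Krt13 stays near 0 throughout.

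The loss of contrast was tested as an interaction, with a single variance per probe set over the groups compared. These groups differed in spread, with a typical SD between arrays of 0.11 at FF 100 ng and 0.25 at FFPE 0.5 ng in urothelium. The effect of this on the p-values was not tested. Against the reference, 6 of 8 keratins were called for a different BC57 minus urothelium change at FFPE 2 ng (all probe sets, 6.32%). At FFPE 0.5 ng 7 of 8 were called (7.46%). Of all probe sets only 15.4% were called in the reference itself, against 7 of 8 keratins. Probe sets without a change in FF RNA have no contrast to lose. The shares over all probe sets, here and in the next test, are therefore no like comparison. The share among probe sets called in the reference was not computed. WT Pico on FF RNA at the same input shares the kit and the input, and this test was added after the values were seen. Preservation still goes with the extraction kit, RNeasy FFPE or RNeasy mini, and the parts of these cannot be told apart. The dim end of the arrays also differed, with a 20th percentile of all values of 3.51 in FF and 4.30 in FFPE urothelium at 2 ng, and of 3.59 and 4.10 in BC57, and its part in the result was not tested. The test at the same input called 7 of 8 at 2 ng (6.95% of all probe sets) and 7 of 8 at 0.5 ng (7.41%). These were all but Krt13, and each of the 7 had a smaller change in FFPE than in FF RNA. Krt13 differed by -0.40 ± 0.13 at 2 ng (limma adjusted p = 0.0299), under the threshold of size. For Krt15 the difference was 4.50 ± 0.12 at 2 ng (limma adjusted p = 3.7e-10) and 4.57 ± 0.16 at 0.5 ng (limma adjusted p = 1.08e-08). For Krt5 it was 2.65 ± 0.21 and 2.44 ± 0.18, and for Krt14 -2.67 ± 0.11 and -2.67 ± 0.24. Krt16 had the smallest of the called differences, -1.47 ± 0.21 and -1.73 ± 0.20, and at 2 ng it was not called after quantile normalization (-0.75). Of the differences from the reference, those of Krt17 (-1.29 at 2 ng and -1.40 at 0.5 ng) and of Krt16 (-1.07 at 0.5 ng) were not called after quantile normalization, at -0.69, -0.81 and -0.68. The last was also not called without BC57 FFPE 0.5 ng replicate 3 (-0.93) or urothelium reference replicate 2 (-1.0).

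Within urothelium, Krt15, Krt5 and Krt4, the keratins with high FF values, fell in FFPE RNA with WT Pico. At 2 ng with WT Pico 3 of 8 were called, Krt15, Krt5 and Krt4, all lower in FFPE, against 22.7% of all probe sets. This share and those below count calls in either direction, and the share called lower is not given here. Krt15 fell by 4.38 on the log2 scale (SE 0.07, n = 3 each, limma adjusted p = 2.25e-07), a fold of 20.9, from arrays between 11.63 and 11.69 to arrays between 7.22 and 7.35. Krt5 fell by 3.24 (SE 0.17), a fold of 9.46. Krt4 fell by 3.13 (SE 0.07), a fold of 8.74, from 9.23, 9.25 and 9.36 to 6.08, 6.17 and 6.21. Among the changes of all probe sets, from lowest to highest, Krt15 stood at percentile 0.0188, Krt5 at 0.113 and Krt4 at 0.137. At 0.5 ng the same keratins fell, by 4.22, 3.29 and 3.0, and 4 of 8 were called, against 28.2% of all probe sets.

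The other 5 keratins read higher in FFPE than in FF urothelium, by 0.41 to 0.93 at 2 ng and 0.57 to 1.02 at 0.5 ng. Over all probe sets the median change was 0.39 at 2 ng and 0.47 at 0.5 ng. Krt16 made the added call at 0.5 ng with 1.02 ± 0.11 (limma adjusted p = 7.03e-05). That call was lost after centring (0.61), after quantile normalization (0.25) and without FF 0.5 ng replicate 2 (0.93). Krt6a, at 0.60 and 0.67 as deposited, turned to -0.15 and -0.14 after quantile normalization, so its direction here depends on the scaling.

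In BC57 Krt14, Krt6a and Krt17, which are high in that line, fell in FFPE RNA, where the median change over all probe sets was 0.28 at 2 ng and 0.39 at 0.5 ng. At 2 ng 4 of 8 were called, Krt14, Krt6a, Krt17 and Krt4, all lower in FFPE, against 8.26% of all probe sets in either direction. Krt14 fell by 2.25 (SE 0.07, limma adjusted p = 4.94e-07), a fold of 4.77, from arrays between 9.34 and 9.43 to arrays between 7.08 and 7.20. Krt6a fell by 1.74 (SE 0.19), Krt17 by 1.61 (SE 0.08) and Krt4 by 1.13 (SE 0.08). Krt5 (-0.59 ± 0.10, limma adjusted p = 0.00101) and Krt16 (-0.54 ± 0.17, limma adjusted p = 0.0198) were also lower, under the 2-fold threshold. At 0.5 ng Krt14, Krt17 and Krt6a were called, against 15.3%, with falls of 1.96, 1.64 and 2.09. After centring, 6 of 8 were called there, with Krt5 at -1.23, Krt16 at -1.09 and Krt4 at -1.29 added, and Krt4 was also called after quantile normalization (-1.05). Krt15, which fell 20.9-fold in urothelium, changed by 0.12 ± 0.10 at 2 ng in BC57 (95% interval -0.10 to 0.34), where its FF arrays read only 6.30 to 6.53. At 0.5 ng it stood 0.36 ± 0.10 higher as deposited and at -0.03 after centring.

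FFPE 50 ng minus FF 100 ng, which also changes kit and input, gave fewer calls than 2 ng in both cell types. In urothelium 2 of 8 were called, Krt4 with -1.94 ± 0.08 (limma adjusted p = 0.000135) and Krt5 with -1.55 ± 0.08 (limma adjusted p = 0.000194), against 7% of all probe sets. Krt15 changed by -0.52 ± 0.11 there, against -4.38 at 2 ng with WT Pico. In BC57 the calls were again Krt4 (-1.09 ± 0.12) and Krt5 (-1.07 ± 0.09), against 4.69%. Neither was called after quantile normalization (-0.88 and -0.81), Krt5 was not called without FF 100 ng replicate 1 (-0.99), and Krt4 was not called without FFPE 50 ng replicate 1 (-0.93). Krt14, the basal keratin that is high in BC57, stood 0.60 ± 0.11 higher at FFPE 50 ng.

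**Figure D3:**
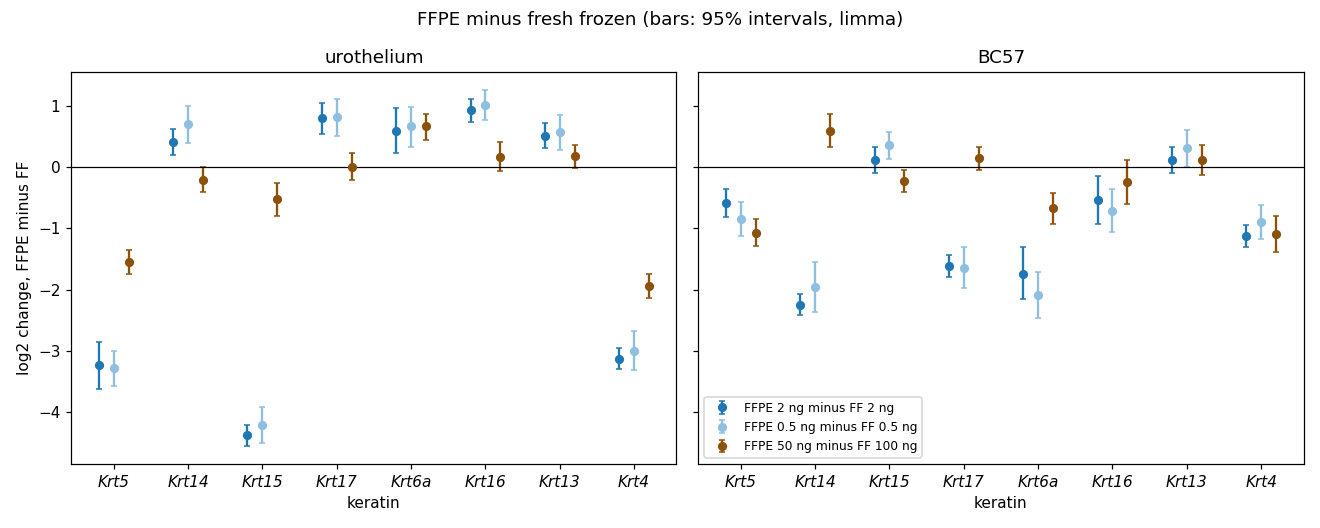
Log2 change of FFPE minus FF RNA (y axis) for each keratin (x axis), in urothelium on the left and BC57 on the right; colours give the pair of groups and bars are 95% intervals from limma. Krt15, Krt5 and Krt4 fell in urothelium and Krt14, Krt6a and Krt17 in BC57 with WT Pico. FFPE 50 ng against FF 100 ng shows values nearer 0 for Krt15 in urothelium and for Krt6a and Krt17 in BC57. There Krt14 in BC57 lies above 0, and the interval of Krt17 includes 0.

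Within FFPE RNA the kits were set side by side in a test added after the values were seen. FFPE 2 ng with WT Pico gave lower values than FFPE 50 ng with SensationPlus for Krt15 (-3.46 ± 0.12, limma adjusted p = 1.67e-05), Krt5 (-2.02 ± 0.21) and Krt4 (-1.45 ± 0.10) in urothelium, 3 of 8 keratins against 7.82% of all probe sets. In BC57 it gave lower values for Krt14 (-2.77 ± 0.10, limma adjusted p = 1.62e-05) and Krt6a (-1.81 ± 0.21), 2 of 8 against 7.33%. Krt5 in BC57 read 6.82 and 6.76 at 50 ng and 6.64, 6.72 and 6.99 at 2 ng, an overlap. Kit and input differ together here too.

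The 4-fold difference of input within WT Pico changed no keratin by a called amount in limma. The largest size of change was 0.16 in FF urothelium, 0.27 in FF BC57, 0.29 in FFPE urothelium and 0.39 in FFPE BC57. An unadjusted p under 0.05 was reached by 1, 1, 1 and 2 of the 8 keratins in that order. The share of all probe sets at that level was not computed. By the stricter call used above, the share of all probe sets was 0.0141%, 0.00471%, 0.00471% and 0%.

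Over the 12 group means the keratins fell into 2 sets that ran against each other, and Krt13 had r of 0.56 or less with every other keratin. Krt5 correlated with Krt15 at r = 0.97 and with Krt4 at 0.95, and Krt15 with Krt4 at 0.91. Krt14 correlated with Krt6a at 0.98, with Krt17 at 0.95 and with Krt16 at 0.81. Between the sets r ran from -0.57 (Krt14 and Krt4) to -0.89 (Krt5 and Krt16, Krt15 and Krt16). Krt5 and Krt14 stood at -0.77. Krt13 stood at -0.71 with Krt4, -0.61 with Krt5 and -0.57 with Krt15, within the range between the sets, and at 0.56 with Krt16, 0.30 with Krt17, 0.11 with Krt14 and 0.08 with Krt6a. The 12 means come from only 4 RNA sources and share the changes of kit and fixation, so r is given as a description. Among the other 21236 probe sets, ranked by r with Krt5, Krt15 was at place 120 and Krt4 at 292. The leading ones were ENSMUSG00000025026 (r = 0.9987) and ENSMUSG00000004552 (r = 0.9964), which the sources used here do not name.

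**Figure D4:**
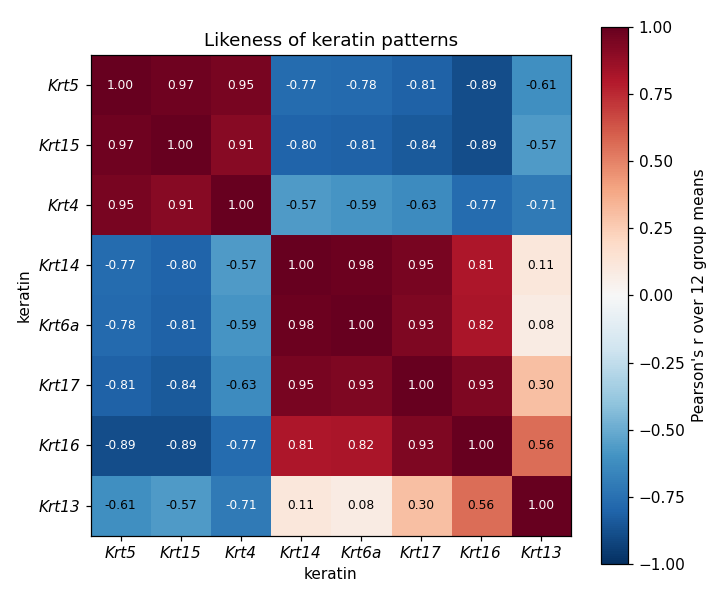
Pearson's r between keratins over the 12 group means (colour and number), with keratins on both axes. Krt5, Krt15 and Krt4 form one block with r from 0.91 to 0.97, and Krt14, Krt6a, Krt17 and Krt16 another with r from 0.81 to 0.98.

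In the RefSeq table (GRCm38.p6) the type I genes lie on chromosome 11 in the order Krt13, Krt15, Krt14, Krt16 and Krt17, with Krt19 and Krt9 as the protein-coding genes between Krt15 and Krt14. Krt14, Krt16 and Krt17 are next to each other and were all higher in BC57, and Krt13 and Krt15 are next to each other, with Krt15 lower and Krt13 not called. The type II genes lie on chromosome 15, where Krt6a and Krt5 are neighbours. These had changes of 5.01 and -4.37 in the reference, and Krt4 lies 7 protein-coding genes beyond Krt5.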

How the data were processed

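Arrays of mouse urothelium and BC57 RNA were compared. The deposited table holds log2 values. Per the submitters' processing notes, the authors used RMA and affy. Their versions, the probe annotation build and the set of arrays normalized at once are not stated in the labels. Values ran from 1.23 to 13.22, and 0 pairs of arrays were identical. Arrays hold no read depth, and their number limits the precision. Keratins were matched to identifiers as the choice of genes gave them; the reference gene table paired 0 identifiers with names, so lists of related genes and cell type markers were not used. Members and lists were chosen with earlier results of these data known.

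Changes were fitted with limma 3.58.1 in R 4.3.3 (lmFit, eBayes with intensity trend, 2-sided) on the arrays of the groups compared, with no filter or pseudocount, and Benjamini-Hochberg adjustment over all probe sets. The fit was tested on simulated data for some comparisons of 2 groups, with the same spread in both. The interaction fits and the replicate block were not tested in this way. Alternatives were centring, quantile normalization, no trend, 1 fit on all arrays, brighter probe sets, single arrays left out and a replicate block. The matched FFPE against FF differences and FFPE 2 ng minus 50 ng were added after the values were seen. All 8 keratins are named, with every array's value for those called in the reference. Replicate numbers were not taken to pair arrays: of 12 comparisons with 3 pairs, 0 had every correlation of deviations over 0.1, and of 8 with 2 pairs, 3 did. In those 3 each group had 2 arrays, so both correlations are the same number. The lowest correlation was -0.461, for BC57 at FF 0.5 ng and FF 2 ng, and its cause was not tested.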

Additional observations from a re-analysis of the deposited data

Results flagged for a closer look

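Each value here is a difference, on the log2 scale, between the BC57 minus urothelium changes of 2 conditions that passed the limma interaction test (adjusted p under 0.05 and a size of at least 1). There were 31 of them among the 8 keratins. From FF 100 ng to FF 2 ng the change of Krt17 differed by 1.12 and that of Krt16 by 1.04, and from FF 100 ng to FF 0.5 ng that of Krt17 by 1.06. From FF 100 ng to FFPE 50 ng the change of Krt6a differed by -1.34.

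From FF 100 ng to FFPE 2 ng the differences were 2.49 for Krt5, 4.28 for Krt15, 1.95 for Krt4, -2.57 for Krt14, -1.29 for Krt17 and -3.05 for Krt6a. From FF 100 ng to FFPE 0.5 ng they were 2.55 for Krt5, 4.50 for Krt15, 2.22 for Krt4, -2.56 for Krt14, -1.40 for Krt17, -3.43 for Krt6a and -1.07 for Krt16.

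At a matched kit and input, from FF 2 ng to FFPE 2 ng, they were 2.65 for Krt5, 4.50 for Krt15, 2.00 for Krt4, -2.67 for Krt14, -2.41 for Krt17, -2.33 for Krt6a and -1.47 for Krt16. From FF 0.5 ng to FFPE 0.5 ng they were 2.44 for Krt5, 4.57 for Krt15, 2.10 for Krt4, -2.67 for Krt14, -2.45 for Krt17, -2.76 for Krt6a and -1.73 for Krt16. Positive values belong to keratins lower in BC57 and negative ones to keratins higher in BC57, apart from Krt17 and Krt16 between FF conditions, whose changes were larger at low input.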

How the results depend on the processing

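None of the 89 called keratin changes altered its sign under any of the 1180 alternative values computed for them, and 27 of these values fell short of a call. Counts of called keratins for BC57 minus urothelium stayed within 1.5 times under the alternatives run: without single arrays they were 7 to 7 in the 3 FF conditions, 6 to 7 at FFPE 50 ng, 3 to 4 at FFPE 2 ng and 3 to 3 at FFPE 0.5 ng. The replicate block gave 7, 7, 7, 7, 4 and 3 for FF 100, 2 and 0.5 ng and FFPE 50, 2 and 0.5 ng, as without it, and changed no other count of called keratins. After centring, the count was 1 for the difference of FF 2 ng from the reference (2 as deposited), 6 for FFPE minus FF at 0.5 ng in BC57 (3 as deposited), and 1 for FF 2 ng and 1 for FF 0.5 ng minus FF 100 ng in BC57 (0 as deposited). Quantile normalization gave 0 for the difference from the reference at FF 2 ng, 0 at FF 0.5 ng and 0 for FFPE 50 ng minus FF 100 ng in BC57 (2 as deposited). Among probe sets brighter than the median 7 of the keratins were tested, all but Krt16. The first of these counts was 1 there, and Krt16 was 1 of its 2 calls as deposited. Without single arrays the count ran from 1 to 2 for the difference from the reference at FF 2 ng, 0 to 1 at FF 0.5 ng and 1 to 2 at FFPE 50 ng. It ran from 1 to 2 for FFPE 50 ng minus FF 100 ng in BC57, from 0 to 2 for FF 2 ng and from 0 to 1 for FF 0.5 ng minus FF 100 ng in BC57. Over all 232 keratin changes, 85 of 2899 alternative values turned sign, all of uncalled changes and with sizes up to 0.23, and the cause was not tested. Of these, 7 belonged to BC57 minus urothelium changes or to changes with a limma adjusted p under 0.05, as follows. Krt13 in BC57 minus urothelium was 0.07 at FFPE 2 ng after centring, and at FFPE 0.5 ng (0.01) ran from -0.13 to 0.11 without single arrays, below 0 without urothelium replicate 1 (-0.02), urothelium replicate 2 (-0.01) or BC57 replicate 3 (-0.13). Krt6a in urothelium, FFPE minus FF, was -0.15 at 2 ng and -0.14 at 0.5 ng after quantile normalization, and Krt15 in BC57 at 0.5 ng was -0.03 after centring. Array data give no depth; dim values of Krt6a, Krt16 and Krt17 in urothelium may be limited by background.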
